A study of Mus musculus with 20 samples.

Results

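A set of 10 genes was examined that stood past the threshold for a difference between Kmt2d mutants and controls in each of 3 Cre lines of the mouse embryonic heart. The genes are Srpk3, Klhdc8b, Eef1a2, Pcp4l1, Ppp1r1a, Inpp5j, Fitm1, Bcam, Fam134b and Phlda1, and they were found by their symbols among the 33495 genes of the deposited table. They were picked from the mutant and control values described here, so those differences are given as a description, with no test and as support for nothing. In all, 14 of the 15351 genes tested in every line stood past the threshold in all lines, and these 10 are among them. Tests are given only for contrasts that the choice did not use and for genes outside the set. The libraries of those contrasts did take part in the choice, so for the 10 genes these tests are not independent of it.

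KMT2D is a histone methyltransferase that marks enhancers and promoters, and mutations in its gene cause Kabuki syndrome, in which heart defects are common. The 10 genes encode proteins of unlike kinds. They include a kinase and an elongation factor known from striated muscle, a relative of a calmodulin-binding peptide, and modulators of phosphatase and phosphoinositide signalling. Others are an endoplasmic reticulum protein of lipid droplets, a laminin receptor, a receptor for the turnover of endoplasmic reticulum and a pleckstrin homology-like protein. Some of the 10, such as the elongation factor, change as muscle matures, which is not claimed here for all of them.

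RNA-seq was done on 20 libraries from hearts of C57BL/6 embryos. Mesp1Cre, active in early mesoderm that forms the heart, was studied in whole hearts at E9.0 (4 mutants and 4 controls). Tnnt2::Cre, driven by the promoter of cardiac troponin T and active in cardiomyocytes, was studied in whole hearts at E11.5 (3 mutants and 3 controls), and Mef2cAHF::Cre, active in precursors of the anterior heart field, in the E11.5 right ventricle with the outflow tract (3 and 3). Mutants were Cre;Kmt2d fl/fl;mTmG/+ and controls Cre;Kmt2d fl/+;mTmG/+, so every heart carried a Cre, an mTmG reporter allele and at least 1 floxed allele of Kmt2d, and each control kept 1 intact copy. The RNA came from all cells of the dissected tissue, also those in which the Cre was not active. Fewer cells of a type and less RNA per cell cannot be told apart in such samples. The labels name the libraries as replicates and do not say whether they came from separate litters, so the errors and p-values given measure the spread between these libraries.

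The Mef2cAHF::Cre labels contradict each other. Of its 6 libraries, the 3 that carry a mutant title and genotype have a column name with wild type in it, and the 3 with a control title have a column name with mut in it. The titles set the groups here, which are called labelled mutant and labelled control throughout. Under the column names each difference of this line takes the opposite sign, and both readings are given. For Mesp1Cre the age label gives E9.0 and the protocol text E11.5 for all hearts.

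Between 21727258 and 45341870 reads were counted per library. Levels are CPM, read counts of a gene scaled to the size of its library, after 1 TMM normalization of all 20 libraries. Fold changes and standard errors come from the edgeR fit of each comparison by itself. FDR is the p of edgeR's quasi-likelihood F test after Benjamini-Hochberg adjustment over all genes tested, and a gene was called below 0.05. The targeted gene, listed as Mll2 (chromosome 15, 98664934 to 98701614 in mm9), had 125 to 141 CPM in Mesp1Cre mutants and 148 to 160.2 CPM in their controls, and 114 to 122 CPM in Tnnt2::Cre mutants and 125 to 166 CPM in theirs. The Mef2cAHF::Cre libraries labelled mutant had 183 to 193 CPM and those labelled control 141 to 154 CPM. The log2 fold changes of Mll2 were -0.21 (SE 0.07, FDR 0.0764), -0.35 (SE 0.12, FDR 0.327) and, by the labels, 0.32 (SE 0.06, FDR 0.0360). Groups did not overlap in any line, and the libraries labelled mutant had the higher level. The call of Mll2 in Mef2cAHF::Cre was lost in most fits with a single library left out. Reads outside the deleted exons are part of these counts.

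Srpk3 (ENSMUSG00000002007, chromosome X, 71019744 to 71024264, plus strand, mm9) encodes a kinase of serine and arginine-rich splicing factors that is made mainly in striated muscle. In Mesp1Cre its level was 4.45, 3.99, 3.63 and 4.70 CPM in the mutants against 13.4, 11.4, 16.25 and 13.1 CPM in the controls. In Tnnt2::Cre the mutants had 6.54, 5.74 and 6.00 CPM and the controls 24.5, 20.3 and 21.8 CPM. The Mef2cAHF::Cre libraries labelled mutant had 14.9, 12.2 and 14.3 CPM and those labelled control 4.83, 2.63 and 3.77 CPM. In each line a low and a high group stood apart with no overlap, and by the labels the high group of Mef2cAHF::Cre was the mutant one. The log2 fold change was -1.69 in Mesp1Cre (SE 0.18, a 3.22-fold lower level) and -1.88 in Tnnt2::Cre (SE 0.13, 3.68-fold lower). In Mef2cAHF::Cre it was 1.87 as labelled (SE 0.20) and -1.87 under the column names. The gene is X-linked, and among male Mesp1Cre libraries alone the level was 3.63 to 4.70 CPM in 4 mutants and 13.1 to 13.4 CPM in 2 controls.

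Klhdc8b (ENSMUSG00000032609, chromosome 9, 108349989 to 108363912, minus strand) encodes a kelch-repeat protein described at the midbody of dividing cells. The Mesp1Cre mutants had 5.20, 4.52, 4.31 and 7.13 CPM, and the controls 20.5, 15.7, 16.8 and 20.8 CPM. Levels in Tnnt2::Cre were 7.96, 8.20 and 8.35 CPM in mutants and 25.5, 20.1 and 19.9 CPM in controls. In Mef2cAHF::Cre they were 13.7, 14.7 and 16.4 CPM in the libraries labelled mutant and 6.89, 7.10 and 5.82 CPM in those labelled control. The groups were again fully apart, and the Tnnt2::Cre mutants lay close together. The log2 fold changes were -1.80 (SE 0.19) in Mesp1Cre, -1.43 (SE 0.14) in Tnnt2::Cre and, by the labels, 1.17 (SE 0.12) in Mef2cAHF::Cre.

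Eef1a2 (ENSMUSG00000016349, chromosome 2, 180882358 to 180891720, minus strand) encodes the isoform of translation elongation factor 1A that takes the place of Eef1a1 in adult muscle and neurons. In Mesp1Cre the mutants had 0.168, 0.0380, 0.171 and 0.0783 CPM against 1.38, 1.44, 0.944 and 0.725 CPM in the controls. In Tnnt2::Cre the values were 0.530, 0.846 and 0.531 CPM in mutants and 4.96, 4.14 and 4.56 CPM in controls. The libraries labelled mutant of Mef2cAHF::Cre had 6.33, 6.36 and 7.06 CPM and those labelled control 0.980, 0.532 and 0.571 CPM. No groups overlapped, and the highest levels of all were in the Mef2cAHF::Cre libraries labelled mutant. The log2 fold changes were -3.26 (SE 0.62) in Mesp1Cre, -2.85 (SE 0.26) in Tnnt2::Cre and 3.22 (SE 0.25) by the labels in Mef2cAHF::Cre. Over the other ways of processing the Mesp1Cre value ran from -3.53 to -0.51, the latter on the log2(FPKM + 1) scale, which shrinks the changes of low genes. The Mesp1Cre value rests on 11 reads in the 4 mutants and 115 in the 4 controls, a level of 11.0% of the controls with an exact binomial 95% interval from 5.35% to 20.5%. That interval covers counting error only.

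Pcp4l1 (ENSMUSG00000038370, chromosome 1, 173103393 to 173126399, minus strand) encodes a small relative of the calmodulin-binding peptide Pcp4. Its levels were 2.98, 4.14, 4.91 and 6.35 CPM in Mesp1Cre mutants and 14.2, 13.95, 13.6 and 17.7 CPM in controls. Tnnt2::Cre mutants had 4.72, 3.70 and 4.16 CPM and controls 15.6, 12.8 and 15.04 CPM. For Mef2cAHF::Cre the values were 16.01, 14.97 and 16.4 CPM in the libraries labelled mutant and 5.07, 3.83 and 5.17 CPM in those labelled control. Pcp4l1 had nearly the same high and the same low level in every line. Its log2 fold changes were -1.69 (SE 0.22) in Mesp1Cre, -1.80 (SE 0.15) in Tnnt2::Cre and 1.745 (SE 0.14) by the labels in Mef2cAHF::Cre, where the column names give -1.745.

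Ppp1r1a (ENSMUSG00000022490, chromosome 15, 103360710 to 103368423, minus strand) encodes inhibitor-1 of protein phosphatase 1, which blocks that phosphatase once it is phosphorylated by protein kinase A. Mesp1Cre mutants had 3.86, 5.66, 4.27 and 5.01 CPM and controls 22.05, 18.8, 17.55 and 18.4 CPM. The Tnnt2::Cre mutants had 6.39, 7.72 and 7.40 CPM and their controls 21.97, 14.4 and 18.7 CPM. In Mef2cAHF::Cre 10.03, 8.53 and 9.77 CPM were found in the libraries labelled mutant and 2.67, 2.13 and 3.01 CPM in those labelled control. The high group of Mef2cAHF::Cre lay below every control of the other lines. Log2 fold changes were -2.03 (SE 0.17), -1.37 (SE 0.17) and, by the labels, 1.85 (SE 0.17) in Mesp1Cre, Tnnt2::Cre and Mef2cAHF::Cre.

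Inpp5j (ENSMUSG00000034570, chromosome 11, 3394378 to 3404824, minus strand) encodes a phosphatase that removes the 5-phosphate from phosphoinositides. In Mesp1Cre it had 1.01, 0.380, 0.0427 and 1.18 CPM in mutants and 3.19, 3.65, 3.74 and 2.34 CPM in controls. In Tnnt2::Cre it had 1.97, 2.46 and 2.37 CPM in mutants and 9.19, 6.82 and 11.7 CPM in controls. The values in Mef2cAHF::Cre were 5.94, 6.14 and 5.79 CPM in the libraries labelled mutant and 1.35, 1.35 and 0.609 CPM in those labelled control. The groups did not overlap, although the Mesp1Cre mutants were spread widely and 1 of them held a single read of the gene. The log2 fold changes were -2.30 (SE 0.62) in Mesp1Cre, -2.04 (SE 0.22) in Tnnt2::Cre and 2.41 (SE 0.27) by the labels in Mef2cAHF::Cre. Over the Mesp1Cre libraries 65 reads in mutants stood against 330 in controls, 22.7% of the control level with a counting interval from 17.1% to 29.7%.

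Fitm1 (ENSMUSG00000022215, chromosome 14, 56194511 to 56195789, plus strand) encodes an endoplasmic reticulum protein that helps lipid droplets to form in skeletal muscle and heart. In the gene models, which give it 912 exonic bases, its exons share 109 bases (11.95%) with Gm15932 on the opposite strand. The deposited table gives it 803 exonic bases, its length without the shared ones. The sources do not say whether reads were counted by strand, and how far the overlap bears on its level was not tested. Levels were 6.84, 5.39, 10.7 and 6.85 CPM in Mesp1Cre mutants and 18.4, 11.9, 9.99 and 14.3 CPM in controls. Tnnt2::Cre mutants had 9.55, 9.65 and 8.24 CPM, and controls 20.5, 16.05 and 23.9 CPM. In Mef2cAHF::Cre the libraries labelled mutant had 7.76, 6.62 and 8.17 CPM and those labelled control 1.56, 1.85 and 1.03 CPM. The third mutant and the third control of Mesp1Cre overlapped, and the other lines showed no overlap. The log2 fold change was -0.87 (SE 0.24) in Mesp1Cre and -1.15 (SE 0.16) in Tnnt2::Cre. In Mef2cAHF::Cre it was 2.33 by the labels (SE 0.22).

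Bcam (ENSMUSG00000002980, chromosome 7, 20341480 to 20356365, minus strand) encodes the Lutheran glycoprotein, a cell surface receptor for laminin. It shares 52 exonic bases (1.63%) with Gm16733 on the opposite strand. Mesp1Cre mutants had 19.5, 16.8, 27.1 and 16.02 CPM and controls 32.05, 27.5, 35.7 and 26.7 CPM. In Tnnt2::Cre 34.9, 39.9 and 38.7 CPM in mutants stood against 62.9, 62.0 and 74.4 CPM in controls. The Mef2cAHF::Cre values were 42.7, 37.7 and 50.9 CPM in the libraries labelled mutant and 17.5, 18.8 and 17.6 CPM in those labelled control. The third Mesp1Cre mutant reached into the range of the controls, and the groups of the other lines did not overlap. The log2 fold changes of Bcam were -0.62 (SE 0.17) in Mesp1Cre and -0.83 (SE 0.11) in Tnnt2::Cre and, by the labels, 1.28 (SE 0.11) in Mef2cAHF::Cre. Those of the whole hearts were the closest to 0 among the 8 genes that were lower in the mutants.

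Fam134b (ENSMUSG00000022270, chromosome 15, 25773019 to 25903442, plus strand), also known as Retreg1, encodes a receptor that directs sheets of endoplasmic reticulum into autophagy, and it was higher in whole-heart mutants. Mesp1Cre mutants had 29.6, 24.5, 47.4 and 25.1 CPM against 12.75, 15.5, 16.1 and 25.9 CPM in controls. Levels of 95.8, 94.3 and 90.04 CPM were found in Tnnt2::Cre mutants and 44.2, 56.4 and 57.0 CPM in controls. In Mef2cAHF::Cre 35.0, 35.05 and 40.0 CPM in the libraries labelled mutant stood against 55.6, 59.4 and 47.0 CPM in those labelled control. The fourth Mesp1Cre control lay among the mutants, and the other lines were fully apart. The log2 fold changes were 0.85 (SE 0.24) in Mesp1Cre, 0.82 (SE 0.11) in Tnnt2::Cre and -0.57 (SE 0.10) by the labels in Mef2cAHF::Cre.

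Phlda1 (ENSMUSG00000020205, chromosome 10, 110943460 to 110945484, plus strand) encodes a protein with a pleckstrin homology-like domain and was the other gene that was higher in whole-heart mutants. Its levels were 64.3, 88.6, 84.75 and 76.1 CPM in Mesp1Cre mutants and 62.7, 46.0, 52.2 and 49.1 CPM in controls. The Tnnt2::Cre mutants held 36.9, 38.0 and 36.35 CPM and the controls 20.8, 18.8 and 22.3 CPM. In Mef2cAHF::Cre the libraries labelled mutant had 13.5, 17.6 and 18.8 CPM and those labelled control 25.6, 23.9 and 32.25 CPM. No groups overlapped, although the first Mesp1Cre control came close to the lowest mutant. Log2 fold changes were 0.58 (SE 0.12), 0.83 (SE 0.10) and, by the labels, -0.72 (SE 0.15) in Mesp1Cre, Tnnt2::Cre and Mef2cAHF::Cre.

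**Figure D1:**
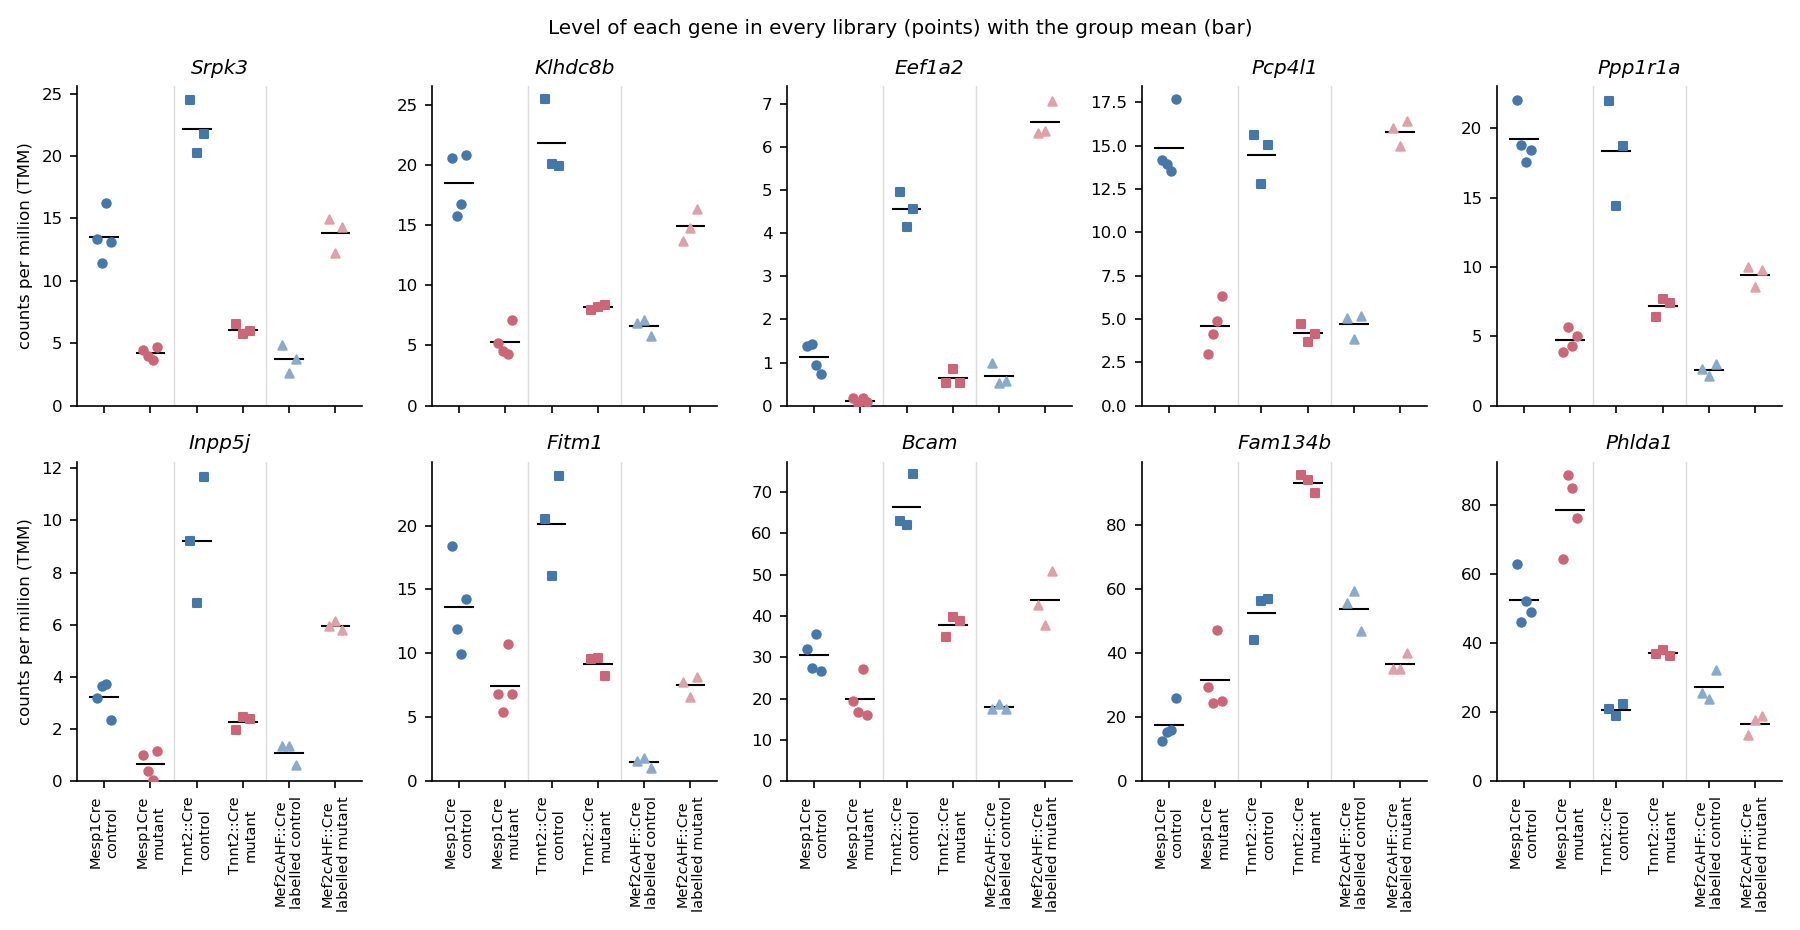
Each panel plots CPM (vertical axis, from 0) of 1 gene in all 20 libraries as points, with the group mean as a bar, for the groups named on the horizontal axis. In 8 panels the mutants of Mesp1Cre and Tnnt2::Cre have the lower mean, and in those of Fam134b and Phlda1 the higher one, while the Mef2cAHF::Cre libraries labelled mutant lie on the opposite side.

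As the choice of the genes fixed, all 10 were called in each line, 8 of them lower and 2 higher in the mutants of Mesp1Cre and Tnnt2::Cre and the reverse as labelled in Mef2cAHF::Cre. Of all genes tested, 5.29% were called lower and 6.17% higher in Mesp1Cre, 0.217% lower and 0.0763% higher in Tnnt2::Cre, and 1.04% lower and 1.81% higher as labelled in Mef2cAHF::Cre. Libraries of mutants and controls did not overlap for 7 of the 10 genes in Mesp1Cre, where this held for 17.7% of all genes tested. No overlap was found for 10 of 10 genes in Tnnt2::Cre, against 17.3% of all genes, and for 10 of 10 in Mef2cAHF::Cre, against 23.6%. The median log2 fold change of the 10 genes was -1.69 in Mesp1Cre, -1.40 in Tnnt2::Cre and 1.80 by the labels in Mef2cAHF::Cre, where the medians over all genes tested were 0.00, 0.00 and -0.01. By the column names the 14 genes called in every line moved in 1 direction across the lines, and by the labels 0 of them did. Leaving out single libraries changed how many of the 10 were called: without Tnnt2::Cre control 3 only 1 remained, without control 1 or without mutant 3 of that line 4 were called, and without Mesp1Cre control 1 or control 2 6 were called.

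**Figure D2:**
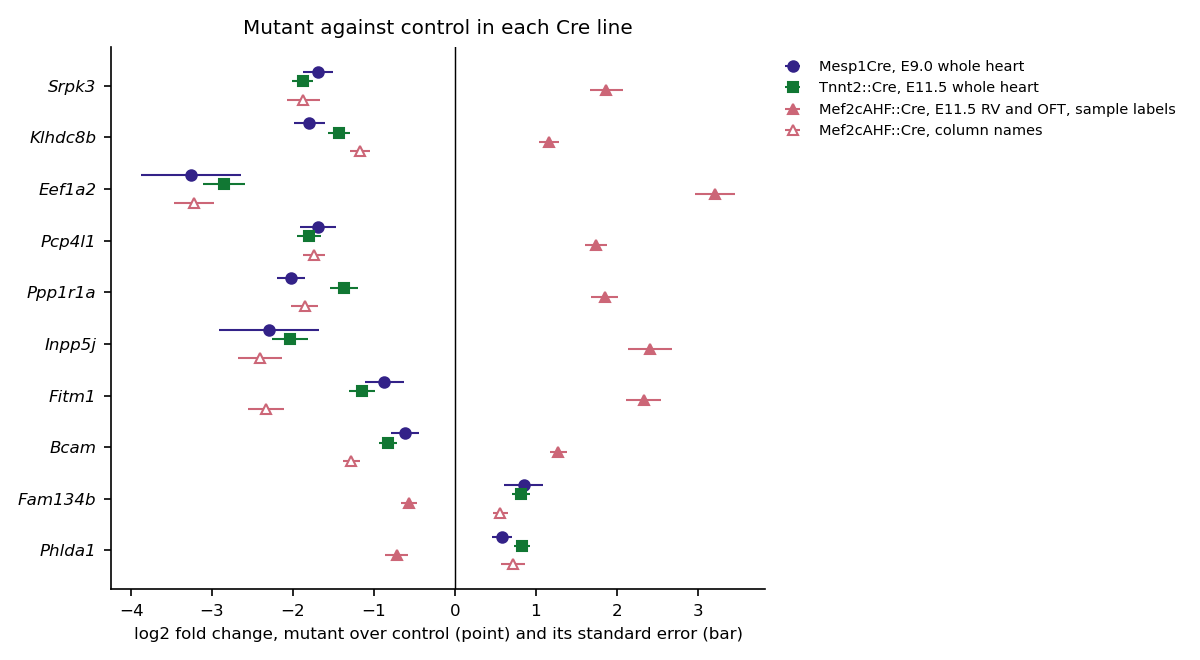
Points give the log2 fold change of each gene, mutant over control (horizontal axis), in each Cre line and bars its standard error, with Mef2cAHF::Cre drawn by the sample labels (filled triangles) and by the column names (open triangles). In the edgeR fit drawn Eef1a2 lies at -3.26 in Mesp1Cre and -2.85 in Tnnt2::Cre, and only the open triangles lie on the same side as the other lines.

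Upstream sequences are shown for 5 of the genes that were lower together in the whole-heart mutants, since they let the promoters be read side by side. The RefSeq promoter table (GRCm38.p6) held windows for 7 of the 10 genes. The 250 bases before the annotated start are printed 5′ to 3′ on the strand of the gene, and each was found exactly once in mm9, where its position is given. Capitals mark letters that match CANNTG (E-box), TATAAA, CTA and TAG with any 4 bases between them (the outer letters of a MEF2 site), GGGCGG (SP1) or AAGTG (NKX2-5) on either strand.
Srpk3, chrX:71019494-71019743, plus strand: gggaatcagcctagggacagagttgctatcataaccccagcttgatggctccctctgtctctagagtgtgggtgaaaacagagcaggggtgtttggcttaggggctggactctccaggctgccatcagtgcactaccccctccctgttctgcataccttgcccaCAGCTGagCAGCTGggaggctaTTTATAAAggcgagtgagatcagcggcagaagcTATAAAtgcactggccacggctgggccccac
Klhdc8b, chr9:108363913-108364162, minus strand: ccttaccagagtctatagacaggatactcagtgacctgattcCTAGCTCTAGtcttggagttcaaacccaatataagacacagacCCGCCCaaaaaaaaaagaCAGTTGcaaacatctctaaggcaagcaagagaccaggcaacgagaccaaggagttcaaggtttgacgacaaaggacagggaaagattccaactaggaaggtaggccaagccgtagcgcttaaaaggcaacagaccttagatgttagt
Eef1a2, chr2:180891721-180891970, minus strand: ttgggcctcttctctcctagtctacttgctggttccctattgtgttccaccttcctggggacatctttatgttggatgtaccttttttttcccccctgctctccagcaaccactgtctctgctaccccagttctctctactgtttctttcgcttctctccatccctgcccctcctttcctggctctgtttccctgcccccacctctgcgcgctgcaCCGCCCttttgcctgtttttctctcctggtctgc
Pcp4l1, chr1:173126400-173126649, minus strand: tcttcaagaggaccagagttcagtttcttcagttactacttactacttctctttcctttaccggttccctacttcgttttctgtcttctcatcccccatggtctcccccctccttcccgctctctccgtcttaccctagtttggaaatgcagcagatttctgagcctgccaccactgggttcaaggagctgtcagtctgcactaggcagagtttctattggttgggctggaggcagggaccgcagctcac
Fitm1, chr14:56194261-56194510, plus strand: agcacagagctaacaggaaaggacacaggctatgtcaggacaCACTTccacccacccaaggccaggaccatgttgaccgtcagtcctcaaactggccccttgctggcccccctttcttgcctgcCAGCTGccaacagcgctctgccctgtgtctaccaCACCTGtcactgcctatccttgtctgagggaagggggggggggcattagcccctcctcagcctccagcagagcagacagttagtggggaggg

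The motifs differed from gene to gene. Srpk3 had E-box letters starting 86 and 78 bases before its start and TATAAA starting 64, 62 and 31 bases before it, where the first of these is read on the other strand and overlaps the next. Klhdc8b had the outer MEF2 letters with GCTC between them, which is not taken as a MEF2 site. Fitm1 had a pair of E-boxes and the NKX2-5 letters. The 7 genes with windows have 11 windows in all. An E-box was found in 4 genes (66.2% of all 32851 windows hold it) and the outer MEF2 letters in 1 (3.20% of windows). The NKX2-5 letters were found in 2 (40.7%), the SP1 letters in 3 (32.7%) and TATAAA in 2 (12.4%). GATA letters (AGATAA or TGATAA) and the hypoxia element ACGTG, which can overlap an E-box, were found in 1 gene each (16.6% of windows for each), and GGAATG (TEAD, 12.6%) and the CArG box of SRF (1.47%) in 0. Pcp4l1 had no match in the printed window. A match describes letters in this window only. A gene was counted if any of its windows matched, while the shares are of single windows, so counts and shares are not directly comparable. The NKX2-5, ACGTG and GATA letters of Fam134b lay in windows whose starts are 90288 to 99415 bases from the start of the gene. The TATAAA of Klhdc8b lay in a window whose start is 8780 bases from that of its gene.

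Levels of different genes were compared per length, as FPKM. In the E9.0 controls of Mesp1Cre the order of mean FPKM (SD, n = 4) was Phlda1 at 31.5 ± 4.38, Fitm1 at 16.4 ± 4.22, Ppp1r1a at 14.35 ± 1.33, Bcam at 9.39 ± 1.43, Pcp4l1 at 9.12 ± 1.18, Klhdc8b at 6.09 ± 0.846, Fam134b at 5.09 ± 1.68, Srpk3 at 4.72 ± 0.792, Inpp5j at 0.902 ± 0.184 and Eef1a2 at 0.517 ± 0.152. Fitm1 and Ppp1r1a, Bcam and Pcp4l1, and the run from Klhdc8b to Srpk3 lay within their spread of each other. In the E11.5 controls of Tnnt2::Cre the order of mean FPKM (SD, n = 3) was Fitm1 at 23.0 ± 4.00, Bcam at 19.4 ± 1.42, Fam134b at 14.4 ± 1.71, Ppp1r1a at 13.0 ± 2.84, Phlda1 at 11.7 ± 0.812, Pcp4l1 at 8.44 ± 0.893, Srpk3 at 7.34 ± 0.841, Klhdc8b at 6.85 ± 1.17, Inpp5j at 2.44 ± 0.582 and Eef1a2 at 2.00 ± 0.206. Eef1a2 and Inpp5j were the lowest at both stages, and neighbours Fitm1 with Bcam, from Fam134b to Phlda1, from Pcp4l1 to Klhdc8b, and Inpp5j with Eef1a2 did not differ beyond their spread.

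The Mef2cAHF::Cre libraries had an order of their own under each label. In those labelled control the highest mean FPKM (SD, n = 3) was that of Phlda1 at 17.99 ± 1.93, followed by Fam134b at 17.35 ± 2.94, and the lowest was that of Inpp5j at 0.345 ± 0.145. In those labelled mutant it was Bcam at 13.5 ± 2.12, followed by Fam134b at 10.6 ± 0.887 and Phlda1 at 9.996 ± 1.71, with Inpp5j again lowest at 1.67 ± 0.0423. The first neighbours of each order lay within their spread.

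The stage of the control heart was the first comparison that the choice did not use. Whole-heart controls at E11.5 (Tnnt2::Cre, n = 3) were compared with those at E9.0 (Mesp1Cre, n = 4), so stage cannot be told apart from the Cre line or, since the labels say that mutants and controls were sequenced together in groups, from the sequencing group. Called were 6 of the 10 genes, 5 of them higher and 1 lower at E11.5, where 38.3% of all genes tested were called, 19.6% higher and 18.8% lower. The median log2 difference of the 10 genes was 0.60, and that of all genes -0.01.

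Eef1a2 rose most, from 0.725 to 1.44 CPM at E9.0 to 4.14 to 4.96 CPM at E11.5, a log2 difference of 1.99 (SE 0.32, FDR 0.000518). Fam134b rose by 1.55 on the log2 scale (SE 0.21, FDR 0.000169), Inpp5j by 1.48 (SE 0.24, FDR 0.000632), Bcam by 1.09 (SE 0.12, FDR 4.69e-05) and Srpk3 by 0.68 (SE 0.14, FDR 0.00295). Phlda1 fell by 1.38 (SE 0.13, FDR 1.5e-05), from 46.0 to 62.7 CPM at E9.0 to 18.8 to 22.3 CPM at E11.5. These 6 genes had no overlap between the stages, which held for 45.4% of all genes tested. Fitm1 differed by 0.52 (SE 0.21, FDR 0.0642), Klhdc8b by 0.21 (SE 0.15, FDR 0.298), Ppp1r1a by -0.10 (SE 0.155, FDR 0.646) and Pcp4l1 by -0.07 (SE 0.14, FDR 0.731), and these 4 did not pass the test. Fitm1 passed it without Mesp1Cre control 1 (0.71, FDR 0.0146) and without Tnnt2::Cre control 2 (0.68, FDR 0.0396), whereas the calls of the 6 genes held with each library left out in turn.

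Among the mutants, the E11.5 hearts of Tnnt2::Cre (n = 3) were compared with the E9.0 hearts of Mesp1Cre (n = 4), and the cells that lost Kmt2d differ too. Called were 4 of 10 genes, against 35.9% of all genes tested. Fam134b was higher at E11.5 by 1.54 (FDR 0.000623) and Bcam by 0.91 (FDR 0.00382), and Phlda1 was lower by 1.10 (log2 difference -1.10, FDR 0.000256). Eef1a2, also counted as called, was higher by 2.44 (FDR 0.0105). It had 19 to 32 reads in the E11.5 mutants and 1 to 4 in those at E9.0. It thus passed the filter on low counts only through the group where it is high, and its call is not read as a test. The call of Eef1a2, which rests on few reads, was lost without Tnnt2::Cre mutant 2 (2.18, FDR 0.0573). The other differences were 1.77 for Inpp5j (FDR 0.067), 0.60 for Klhdc8b (FDR 0.054), 0.59 for Ppp1r1a (FDR 0.0525), 0.52 for Srpk3 (FDR 0.0701), 0.28 for Fitm1 (FDR 0.395) and -0.15 for Pcp4l1 (FDR 0.699). Of these, Inpp5j passed without Mesp1Cre mutant 3 (FDR 0.0444), Klhdc8b without mutant 4 (FDR 0.0183) and Ppp1r1a without mutant 2 (FDR 0.0371). Inpp5j was also below the threshold without mutant 4 (FDR 0.0482), where the E9.0 mutants left had 24, 10 and 1 reads. In that fit it passed the filter on low counts only through the E11.5 group, so this is not read as a test. Whether the stage difference itself differed between mutants and controls was not tested.

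Mutants at E11.5 were also set beside controls at E9.0, as a description, since both lines differ in stage and Cre. The genes were chosen from the values of these same groups, so the choice fixes the counts below in part and they support nothing. In 6 genes every E11.5 mutant lay below every E9.0 control: Pcp4l1 at 28.2% of the control mean, Ppp1r1a at 37.3%, Klhdc8b at 44.3%, Srpk3 at 45.03%, Fitm1 at 67.1% and Phlda1 at 70.65%. Eef1a2 at 56.75%, Inpp5j at 70.25% and Bcam at 124% overlapped the E9.0 controls. Fam134b alone lay above all of them, at 531.5%. Of all genes tested in both lines, 18.9% lay fully below and 22.2% fully above the E9.0 controls in the E11.5 mutants.

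**Figure D3:**
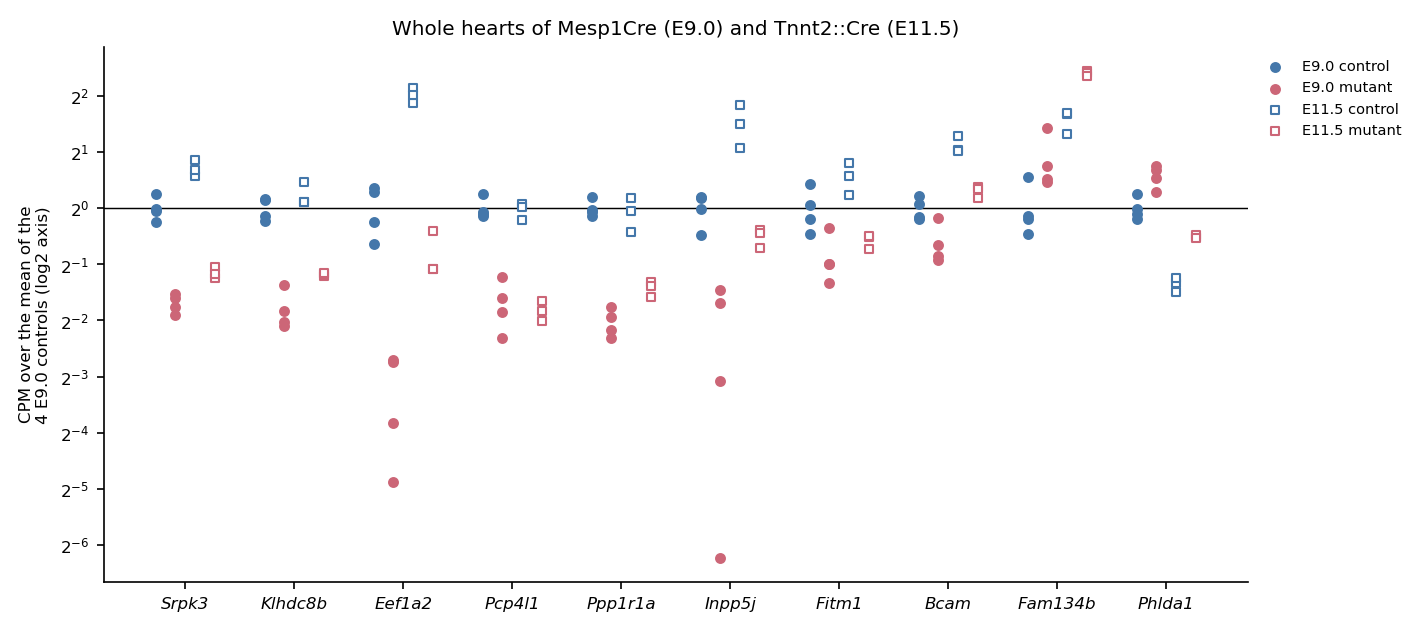
For each gene the CPM of every whole-heart library is drawn relative to the mean of the 4 E9.0 controls (log2 axis), with circles for Mesp1Cre at E9.0, open squares for Tnnt2::Cre at E11.5, blue for controls and red for mutants. E11.5 controls rise above the line for Eef1a2, Inpp5j, Bcam, Fam134b and Srpk3, fall below it for Phlda1 and lie around it for Pcp4l1 and Ppp1r1a.

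The right ventricle with outflow tract was compared with the whole heart at E11.5, and this comparison shares the Tnnt2::Cre controls with that of stage. Tissue cannot be told apart from Cre line or sequencing group here. Both groups also supplied values by which the genes were chosen, so the tests below are not independent of that choice. Read by the column names, the Mef2cAHF::Cre controls are the libraries labelled mutant. Against the Tnnt2::Cre controls 8 of the 10 genes were then called, 1 higher and 7 lower, where 38.6% of all genes tested were called, 17.3% higher and 21.3% lower. Fitm1 differed by -1.44 (FDR 6.06e-05), Ppp1r1a by -0.98 (FDR 0.000594), Srpk3 by -0.70 (FDR 0.000677), Inpp5j by -0.65 (FDR 0.0166), Bcam by -0.62 (FDR 0.00139), Klhdc8b by -0.57 (FDR 0.00351) and Fam134b by -0.53 (FDR 0.00252), while Eef1a2 was higher by 0.51 (FDR 0.0154). Pcp4l1 (0.11, FDR 0.447) and Phlda1 (-0.33, FDR 0.0617) did not pass the test. The call of Eef1a2 was lost without labelled mutant 3 (FDR 0.0601) or Tnnt2::Cre control 2 (FDR 0.0516), that of Inpp5j was lost without labelled mutant 3 (FDR 0.0562), and Phlda1 passed without Tnnt2::Cre control 2 (FDR 0.0460).

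By the sample labels the Mef2cAHF::Cre controls are the libraries labelled control. The choice of the genes placed these on the other side, so the log2 differences from Tnnt2::Cre controls are given without a test. They were -3.77 for Fitm1, -3.06 for Inpp5j, -2.83 for Ppp1r1a, -2.71 for Eef1a2, -2.57 for Srpk3, -1.90 for Bcam, -1.73 for Klhdc8b, -1.63 for Pcp4l1, 0.03 for Fam134b and 0.40 for Phlda1. Under either reading Fitm1 was the gene with the lowest value relative to the whole heart.

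Across the 20 libraries the 28 pairs among the 8 genes that were lower in whole-heart mutants had a median Pearson r of 0.77 on log2 CPM (from 0.33 to 0.94), highest for Srpk3 with Klhdc8b. Genotype, stage and line are shared by these points and the genes were chosen for the first. Once the mean of each group was taken off, the median r of the same pairs was 0.06 (from -0.47 to 0.53). With few libraries in each group, this does not show that the genes vary independently. The 16 pairs of these 8 with Fam134b or Phlda1 had a median r of -0.34 over the 20 libraries (from -0.86, for Eef1a2 with Phlda1, to 0.25), and Fam134b with Phlda1 had -0.41.

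The genes most like the mean of the 10 standardised log2 CPM values, out of 12301 compared over all 20 libraries, were Pygm (r = 0.91), the glycogen phosphorylase of muscle, Kbtbd10 (r = 0.91), a kelch protein of striated muscle, Rtn4rl1 (r = 0.90), Sv2a (r = 0.88) and Wfs1 (r = 0.87). Next came Efnb3, F630110N24Rik and Klhl30 (r = 0.87 each), Sec14l1 (r = 0.86) and Tnni3 (r = 0.86), the cardiac isoform of troponin I. The median r over all genes compared was 0.05. By deviations from the group means the most like were Dusp27 (r = 0.84) and Trim54 (r = 0.79), so the order of likeness changed when the groups were taken out. These values are the highest of 12301 genes, while pairs of the 8 genes had a median r of only 0.06 there. Fam134b and Phlda1 entered the mean with their own sign, so likeness to it is mostly likeness to the other 8 genes.

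Relatives of the 10 genes were counted over 10 families. In Mesp1Cre 15 of 78 relatives tested were called, 9 higher and 6 lower, where 6.17% of all genes were called higher and 5.29% lower. In Mef2cAHF::Cre 5 of 78 were called, 2 higher and 3 lower by the labels, where the shares of all genes were 1.81% and 1.04%. In Tnnt2::Cre edgeR called 0 of 81, with 14 at an unadjusted p below 0.05 (17.3% of them, against 11.9% of all genes) and 1 called by DESeq2. The median log2 fold change of the relatives was -0.02 in Mesp1Cre, -0.01 in Tnnt2::Cre and 0.08 in Mef2cAHF::Cre by the labels. In the control hearts 40 of 81 differed between the stages, against the 38.3% of all genes.

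Eef1a1, the widespread isoform of elongation factor 1A, had a level of 2458 to 2958 CPM in the Mesp1Cre libraries and a log2 fold change of 0.12 there (FDR 0.229). Its change was 0.03 in Tnnt2::Cre (FDR 0.961), and as labelled it was -0.02 in Mef2cAHF::Cre (FDR 0.925). None of these passed the test. Srpk1 fell by 0.41 (FDR 0.0213) and Srpk2 rose by 0.45 (FDR 0.0110) in Mesp1Cre, and neither was called in the other lines, where both lay between -0.07 and 0.10. The closest kin of Srpk3 thus had opposite signs in Mesp1Cre.

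Ppp1r1b, or DARPP-32, the neuronal kin of inhibitor-1, had values of the opposite sign to Ppp1r1a. It rose by 1.29 in Mesp1Cre (FDR 0.0350), had a log2 fold change of 1.61 in Tnnt2::Cre that missed the threshold (FDR 0.0615), and fell by 1.04 by the labels in Mef2cAHF::Cre (FDR 0.00337). Its level was 1.07 to 2.46 CPM in Mesp1Cre controls and 2.89 to 6.49 CPM in mutants, with no overlap. Other genes of phosphatase 1 called in Mesp1Cre were Ppp1r3c, a glycogen-targeting subunit, at 1.43 and the catalytic subunit Ppp1ca at -0.39, and Ppp1r3a was called at 1.465 by the labels in Mef2cAHF::Cre.

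Fitm2, the widely expressed kin of Fitm1, had log2 fold changes of -0.57 (FDR 0.0731), -0.21 (FDR 0.569) and 0.16 (FDR 0.656) in Mesp1Cre, Tnnt2::Cre and Mef2cAHF::Cre and was not called. Lama5, which encodes the laminin chain that Bcam binds, had 0.24 (FDR 0.427), -0.06 (FDR 0.927) and 0.52 (FDR 0.0875), and Mcam and Alcam, kin of Bcam, were not called in any line. Fam134a and Fam134c, the kin of Fam134b, lay at -0.07 and -0.07 in Mesp1Cre and at -0.40 and -0.28 in Tnnt2::Cre, and none of these passed the test. Inpp5k at 0.36 and Inpp5e at -0.21 in Mesp1Cre, and Phlda2 at -1.31 (FDR 0.0770) and Phlda3 at 0.21, did not pass the test either. Further called relatives of Mesp1Cre were Clk1 (0.34), Eef1d (-0.43), Eef2 (0.35), Gap43 (0.88), Calm2 (-0.41), Dgat2 (0.59), Lama2 (0.82), Lama4 (-0.41) and Calcoco1 (1.04), and by the labels Gap43 (-0.80), Itga6 (0.57) and Eef1g (-0.30) were called in Mef2cAHF::Cre.

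Genes of muscle maturation outside the set were also counted. In Mesp1Cre 6 of 24 tested were called, with Ryr2, the calcium release channel, higher by 0.58 (FDR 0.00714) and 5 lower. Lower were Atp2a1 (-2.50, FDR 0.000339), the calcium pump of fast muscle, Myoz2 (-1.72), Pln (-0.92), Smpx (-0.74) and Casq1 (-0.63). In Tnnt2::Cre 4 of 29 were called, all lower: Ckm (-3.215, FDR 0.0274), the creatine kinase of muscle, Sgca (-2.77, FDR 0.00211), a sarcoglycan, Eno3 (-1.46, FDR 0.00532), the enolase of muscle, and Hrc (-1.22, FDR 0.0179). By the labels 13 of 30 were called in Mef2cAHF::Cre, 12 of them higher, among them Sgca (3.72, FDR 0.00158), Cox8b (2.42), Hrc (1.93) and Eno3 (1.33), and Mb, myoglobin, was lower (-1.255, FDR 0.0368). The called shares of all genes were 5.29% lower and 6.17% higher in Mesp1Cre, 0.217% lower in Tnnt2::Cre, and 1.81% higher and 1.04% lower by the labels in Mef2cAHF::Cre. The list medians were -0.15, -0.13 and 0.67 in Mesp1Cre, Tnnt2::Cre and Mef2cAHF::Cre. In the control hearts 19 of 29 differed between the stages, 14 of them higher at E11.5, against 38.3% and 19.6% of all genes.

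**Figure D4:**
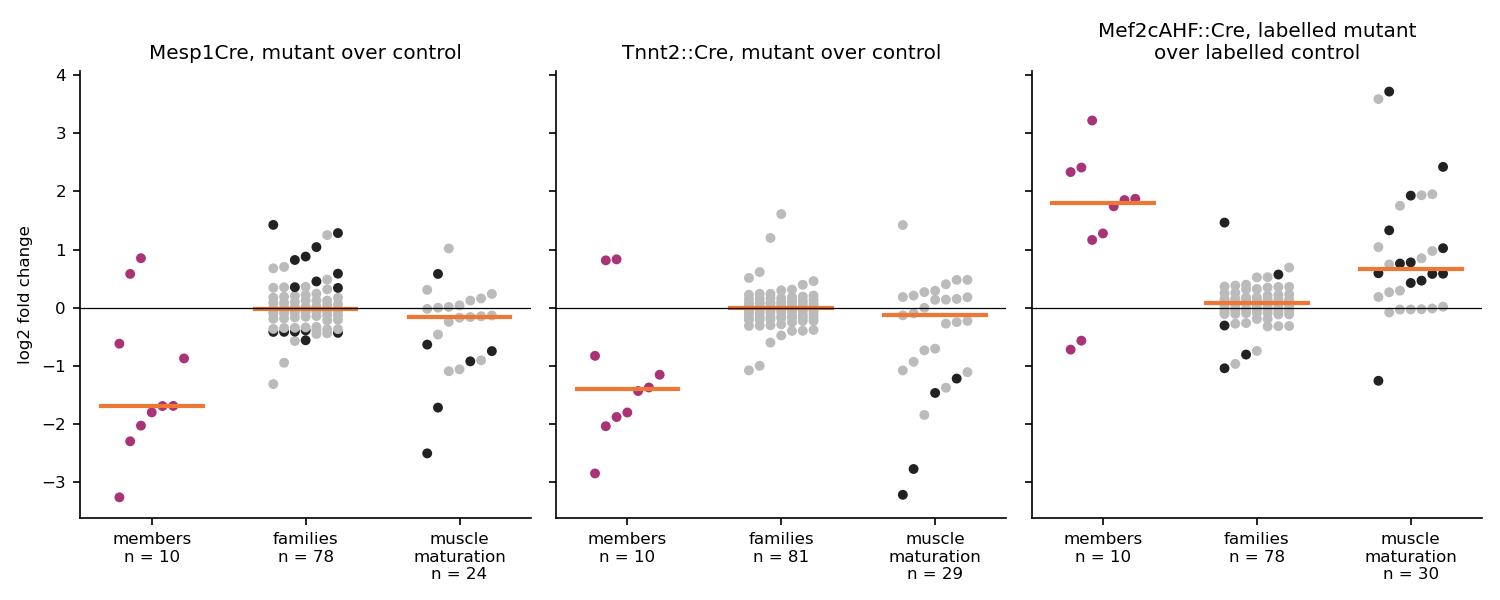
Each panel gives for 1 Cre line the log2 fold change (vertical axis) of the 10 genes (purple), of their relatives and of muscle maturation genes (black where the FDR was below 0.05, grey otherwise), with the median of each list as an orange bar. The medians of the relatives lie at -0.02, -0.01 and 0.08, and those of the 10 genes at -1.69, -1.40 and 1.80 in Mesp1Cre, Tnnt2::Cre and Mef2cAHF::Cre.

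Markers of cell types were summed as CPM beside these results, and their part in them was not tested. All 15 cardiomyocyte markers had reads in every group, and their sum was 57540 to 68690 CPM in Mesp1Cre mutants against 46240 to 59220 in controls, 43730 to 50570 in Tnnt2::Cre mutants against 35850 to 47020, and 37420 to 43360 in Mef2cAHF::Cre libraries labelled mutant against 29960 to 37700 in those labelled control. The single markers did not all follow their sum. In Mesp1Cre edgeR called 3 of 15 lower and 1 higher (5.29% and 6.17% of all genes), with a median log2 fold change of -0.08. It called 0 in Tnnt2::Cre and, by the labels, 1 higher in Mef2cAHF::Cre (1.81% of all genes). Divided by the summed CPM, the libraries did not overlap for 8 of the 10 genes in Mesp1Cre, 10 in Tnnt2::Cre and 10 in Mef2cAHF::Cre. The same division left no overlap for 19%, 13.4% and 29.7% of all genes tested. Fits scaled to these markers had all-gene median log2 fold changes of -0.25, -0.15 and -0.23 in the same order. Other lists were summed too, and some are given here. The 10 endothelial and endocardial markers summed to 791.9 to 904.6 CPM in Mesp1Cre mutants against 576 to 682.1 in controls, and their ranges overlapped in the other lines. Of them edgeR called 4 of 10 higher in Mesp1Cre (6.17% of all genes). It called 1 higher by the labels in Mef2cAHF::Cre (1.81% of all genes) and 0 in Tnnt2::Cre. The 12 erythroid markers summed to 1933 to 7608 CPM in Mesp1Cre mutants against 5433 to 17870 in controls, to 19720 to 133900 in Tnnt2::Cre mutants against 103800 to 161000, and to 25700 to 47890 in labelled mutants against 7376 to 32420 in labelled controls. These ranges overlapped in every line, and edgeR called 5 of 12 lower in Mesp1Cre, 2 of 12 higher by the labels in Mef2cAHF::Cre and 0 of 12 in Tnnt2::Cre, where 0 had an unadjusted p below 0.05 and DESeq2 called 0. The 5 platelet markers summed to 35.9 to 191 CPM in Mesp1Cre mutants against 6.03 to 16.6 in controls, to 43.4 to 86.5 in labelled mutants against 177 to 463 in labelled controls, and, with overlap, to 158 to 760.2 in Tnnt2::Cre mutants against 177 to 328.6. The 10 hypoxia response genes summed to 5438 to 6361 CPM in Mesp1Cre mutants against 3064 to 3736 in controls, to 2499 to 3841 in Tnnt2::Cre mutants against 1835 to 2544, and to 2174 to 2267 in labelled mutants against 2286 to 3579 in labelled controls. Called were 10 of 10 higher in Mesp1Cre, and edgeR called 0 of 10 in Tnnt2::Cre (7 at an unadjusted p below 0.05, 3 called by DESeq2) and 0 of 10 in Mef2cAHF::Cre (6 and 1). Of the 6 skeletal muscle markers, Myod1 had no reads in either Mesp1Cre group and Myog none in the mutants.

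By Y-linked genes, 4 of 4 Mesp1Cre mutants and 2 of 4 controls were male, with 1 mutant and 2 controls of Tnnt2::Cre, and 0 labelled mutants and 1 labelled control of Mef2cAHF::Cre. Among the male Mesp1Cre libraries alone 8 of the 10 genes did not overlap, and Bcam and Fam134b did. With so few libraries 32.7% of all genes tested did not overlap.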

How the data were processed

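The 20 RNA-seq libraries were grouped by sample title and genotype. Per the labels and methods, the authors aligned reads with TopHat2 2.0.8b to mm9 and assigned them to genes with featureCounts. The deposited table holds counts without normalization and FPKM values, and its name credits both to USeq. Which tool gave the deposited counts is thus not settled by the sources. The 20 columns of variance-corrected values in that table were not used. The labels and the methods name different library kits, and strand handling in counting is not given in the sources used here.

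Each comparison was fitted by itself in edgeR 4.0.16 (R 4.3.3), with filterByExpr, TMM, estimateDisp and the quasi-likelihood F test. The standard error is the log2 fold change divided by the square root of F. Levels are CPM after a TMM normalization of all 20 libraries, and log2 CPM used a prior count of 2. Likeness was Pearson's r among genes with a mean log2 CPM of at least 1. Male libraries had at least 10 CPM of Y-linked genes. The fit was tested on simulated counts, with changes placed only in genes of many reads and the same spread for all genes. That test does not cover genes with few reads, such as Eef1a2. Exonic overlaps were read from the gene models that the table's identifiers match, in mm9, and promoter windows were RefSeq's 250 bases upstream and 50 downstream, searched upstream of the start.

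The 10 genes, the families, the muscle and marker lists and the alternatives were chosen with earlier results of these data known. Named were the 10 genes, their nearest relatives, every family gene called within a Cre line, the called muscle genes with the largest changes or in short lists, and the 10 genes most like the set. Some genes that fall under this rule are not reported here. For the Mef2cAHF::Cre libraries labelled control against Tnnt2::Cre controls a test had been planned, and only values are given, since the choice of the genes bears on it. Alternatives were the DESeq2 1.42.0 Wald test, DESeq2 size factors, other count filters, a 6-group fit, log2 FPKM with a pseudocount of 0.1 or of 1 in limma 3.58.1 with a trend, a replicate block, sex as covariate, scaling to cardiomyocyte markers, erythroid genes left out, the column names, and each library left out.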

Additional observations from a re-analysis of the deposited data

Results flagged for a closer look

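Pcp4l1 was flagged for a library that stood apart from its group. The fourth Mesp1Cre control had 17.71 CPM and the other 3 had 13.6 to 14.2 CPM. In 22 groups of 4 libraries examined, chance flags about 1 in 20.

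In 7 of the 10 genes the Mef2cAHF::Cre difference, as labelled, had the opposite sign to both other lines, with no overlap between groups in any line. These are Srpk3, Klhdc8b, Eef1a2, Pcp4l1, Ppp1r1a, Inpp5j and Phlda1. The choice of the genes largely fixes this count, and the same held for 1.47% of the 15351 genes tested in every line. The difference between the lines was not tested, and the column names would give all lines the same sign. The targeted gene, Mll2, had the higher level in the libraries labelled mutant.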

How the results depend on the processing

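The direction of the 10 genes within each Cre line held under all alternatives other than the column names, which gave in Mef2cAHF::Cre -1.87 for Srpk3, -3.22 for Eef1a2, -1.745 for Pcp4l1, -2.41 for Inpp5j, -1.17 for Klhdc8b, -1.85 for Ppp1r1a, -2.33 for Fitm1, -1.28 for Bcam, 0.565 for Fam134b, 0.72 for Phlda1 and -0.32 for Mll2. The cause of the changes below was not tested. Sex as covariate left 6 of the 10 genes called in Mesp1Cre, 4 in Tnnt2::Cre, 2 between stages in mutants and 5 between tissues by the column names. In Tnnt2::Cre log2(FPKM + 0.1) gave 6 and log2(FPKM + 1) gave 5. Between stages in mutants DESeq2 gave 8, the 6-group fit 8 and scaling to cardiomyocyte markers 9, and the 6-group fit gave 5 between tissues by the column names. Among relatives DESeq2 called 24 in Mesp1Cre, 1 in Tnnt2::Cre and 10 in Mef2cAHF::Cre, and keeping all genes with at least 1 count gave 9 in Mef2cAHF::Cre and 1 in Tnnt2::Cre. Of muscle maturation genes DESeq2 called 10 in Mesp1Cre and 11 in Tnnt2::Cre.

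The difference of Mll2 in Mesp1Cre passed the threshold with DESeq2 (-0.21, FDR 0.0399), the 6-group fit (-0.23, FDR 0.0318) and scaling to cardiomyocyte markers (-0.46, FDR 0.0392). In Mef2cAHF::Cre its rise as labelled missed it with the 6-group fit (0.3163), log2(FPKM + 0.1) (0.18), log2(FPKM + 1) (0.17) and scaling to cardiomyocyte markers (0.090). Scaling to cardiomyocyte markers also gave stage differences in controls of 0.31 for Pcp4l1 and 0.26 for Ppp1r1a, and of 0.28 for Pcp4l1 in mutants, where the median of all genes was shifted by 0.38 in controls and 0.45 in mutants.

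With each library left out in turn, 6 to 9 of the 10 genes were called in Mesp1Cre, 1 to 10 in Tnnt2::Cre and 8 to 10 in Mef2cAHF::Cre. The change of Mll2 in Mef2cAHF::Cre ran from 0.28 to 0.34. Its call was lost without labelled mutant 1 (FDR 0.149), 2 (FDR 0.152) or 3 (FDR 0.136), and without labelled control 1 (FDR 0.0743) or 3 (FDR 0.0605). Stage differences in controls ran from -0.11 to 0.025 for Pcp4l1 and from -0.23 to 0.062 for Ppp1r1a, and in mutants from -0.32 to 0.040 for Pcp4l1.

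Same-numbered Mesp1Cre libraries share a code in their names whose meaning the labels do not give, so replicate numbers do not pair libraries by the labels. Deviations of same-numbered Mesp1Cre libraries correlated at -0.03 to 0.09. With the replicate block 8 of the 10 genes were called in Mesp1Cre, 5 in Tnnt2::Cre, 3 between stages in mutants and 9 between tissues by the column names. With this block Mll2 in Mef2cAHF::Cre changed by 0.3173 and missed the threshold (FDR 0.0584), and Pcp4l1 differed between stages by 0.021 in controls and 0.059 in mutants.

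Eef1a2 and Inpp5j in Mesp1Cre are limited by their few reads.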
